A study of Mus musculus with 7 samples.

Results

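Heat shock proteins and chaperonins are the genes whose products help other proteins to fold, and 77 of the 14732 genes listed for the mouse outflow tract (OFT) belong to them. They were chosen by symbol alone, not by their values: the HSP70 and HSP110 (Hspa, Hsph1), HSP90, small heat shock (Hspb), mitochondrial chaperonin (Hspd1, Hspe1), J-domain (Dnaja, Dnajb, Dnajc), CCT (Cct, Tcp1) and prefoldin (Pfdn) names. The J-domain proteins make up 40 of the 77, HSP70 and HSP110 make up 14, CCT 8, prefoldin 5, the small heat shock proteins 5, HSP90 3 and the mitochondrial chaperonin 2. RNA-seq was performed on poly(A)+ RNA of E11.5 OFTs in 3 control pools, which were wild type (WT), and 4 Gata6STOP/+ pools. Gata6STOP/+ embryos are heterozygous for a CRISPR-Cas9 frameshift allele, present in every tissue, that places a premature stop codon in the GATA6 transcription factor. According to the design text each pool held 4 pairs of OFTs and each genotype had 3 pools, whereas the samples number 3 and 4, so embryos were pooled and no value belongs to 1 embryo. The labels do not say which pools came from separate litters, so P-values measure the spread between these pools, which may be partly technical. A pool has the replicate number of its label: 3, 4 and 5 in the controls and 1, 3, 4 and 5 in the mutants.

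Chaperones work in relays. HSP70 binds short exposed stretches of a client and lets go in a cycle driven by ATP, J-domain proteins bring clients to it and trigger hydrolysis, and HSP90 receives a smaller set of clients such as kinases and steroid receptors. Small heat shock proteins hold unfolded proteins without ATP and are abundant in muscle. CCT is a double ring of related subunits that folds actin and tubulin, which prefoldin delivers to it. HSP60 with its lid HSP10 is the chaperonin of the mitochondrial matrix. Heat and unfolded protein in the cytosol raise some of these genes through the factor HSF1, and unfolded protein in the endoplasmic reticulum (ER) raises another subset through ATF6 and XBP1.

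Values are CPM, read counts scaled to each pool's depth by the authors with the TMM method, and a fold change is the difference of log2(CPM + 0.5), Gata6STOP/+ minus control, from a limma fit across all listed genes. Reads on the listed genes, recovered from the CPM values, numbered 17783655 to 29035529 per control library and 24736761 to 34467710 per Gata6STOP/+ library. The chaperone genes took 1.33% to 1.48% of them. Gata6, the targeted gene, had 315, 257 and 286 CPM in the control pools and 268, 203, 219 and 217 in the Gata6STOP/+ pools. The groups overlapped through Gata6STOP/+ replicate 1, which lay above control replicate 4, and the log2 fold change was −0.34 ± 0.10 (s.e.; limma adjusted P=0.389). Summed over marker lists, the pools held 18849 to 26697 CPM of 10 cardiomyocyte genes, 2580 to 3547 of 6 smooth muscle genes, 664 to 910 of 7 endothelial and endocardial genes and 1341 to 1797 of 6 OFT genes. Erythroid genes (8) ranged from 1969 to 6131 CPM, neural crest and glial genes (4 of 5 listed) from 68.5 to 114, neuronal genes (5) from 45.0 to 68.9, and epithelial genes (2 of 6 listed; Cdh1, Epcam, Foxa2 and Shh were not) from 69.9 to 117. In bulk tissue, fewer cells of a type and less RNA per cell cannot be told apart.

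Heat shock and ER stress elements are known control sites of some genes of this family. The 4 promoters shown hold them, and were picked because results on the mitochondrial and ER chaperones concern these genes. RefSeq promoter windows (GRCm38.p6) were at hand for 62 of the 77 genes, and Hsp90aa1 and Hspa8 were among those without one. A heat shock element of 3 units, GAANNTTCNNGAA on either strand, stood in 6.45% of them (4 of 62: Dnajb6, Hspd1, Hspe1 and Hsph1) and in 0.59% of the 10852 listed genes that have a window. The ER stress element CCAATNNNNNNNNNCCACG stood in 4.84% (3 of 62: Dnajc3, Hsp90b1 and Hspa5) and in 0.147% of the listed genes. GATA motifs, searched on either strand as AGATAA or TGATAA, each also with G as its last letter, stood in 22.6% (14 of 62) and 21.9%, and TATAAA in 6.45% and 5.53%. A match is only a description of the letters. The heat-inducible Hspa1a and Hspa1b had 0 matches to this strict heat shock pattern, which does not find elements of other letters or spacing. In the sequences below, capitals mark the heat shock elements of Hspe1 and the ER stress elements of the other 3 genes, and each runs 5′ to 3′ on the gene's own strand. Hspe1 lies at chr1:55087898-55088197 (plus strand), Hspa5 at chr2:34771840-34772139 (plus strand), Hsp90b1 at chr10:86705395-86705694 (minus strand) and Dnajc3 at chr14:118937682-118937981 (plus strand).
Hspe1: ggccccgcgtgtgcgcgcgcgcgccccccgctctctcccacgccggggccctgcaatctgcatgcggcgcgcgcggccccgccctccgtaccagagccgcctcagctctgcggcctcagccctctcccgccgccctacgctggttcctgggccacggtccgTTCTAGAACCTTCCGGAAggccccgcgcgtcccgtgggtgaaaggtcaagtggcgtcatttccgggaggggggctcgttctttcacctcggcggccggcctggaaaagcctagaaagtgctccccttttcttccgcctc
Hspa5: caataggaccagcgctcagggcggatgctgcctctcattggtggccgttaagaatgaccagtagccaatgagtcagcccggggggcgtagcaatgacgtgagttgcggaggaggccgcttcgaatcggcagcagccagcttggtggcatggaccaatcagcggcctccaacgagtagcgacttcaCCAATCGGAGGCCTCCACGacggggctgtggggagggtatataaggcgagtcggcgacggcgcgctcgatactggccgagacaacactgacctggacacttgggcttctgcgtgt
Hsp90b1: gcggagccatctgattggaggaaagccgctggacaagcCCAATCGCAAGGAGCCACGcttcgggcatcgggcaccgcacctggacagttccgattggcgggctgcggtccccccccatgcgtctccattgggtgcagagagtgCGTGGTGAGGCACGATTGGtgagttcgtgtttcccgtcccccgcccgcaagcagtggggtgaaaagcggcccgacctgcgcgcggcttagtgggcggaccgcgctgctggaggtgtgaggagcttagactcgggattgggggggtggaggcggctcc
Dnajc3: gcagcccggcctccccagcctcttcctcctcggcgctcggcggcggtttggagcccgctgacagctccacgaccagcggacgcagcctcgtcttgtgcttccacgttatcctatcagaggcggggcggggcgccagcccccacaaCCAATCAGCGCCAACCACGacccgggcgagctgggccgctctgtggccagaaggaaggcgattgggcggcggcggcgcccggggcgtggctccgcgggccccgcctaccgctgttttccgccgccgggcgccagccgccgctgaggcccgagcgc
The Hspe1 window largely matches 1 window of Hspd1 read from the other strand: 285 bases are shared between the 2 windows, the heat shock elements among them. Another Hspd1 window, chr1:55088194-55088493, which holds the annotated gene start at 55088243, has 0 heat shock elements. In Hspe1 the elements are 2 overlapping matches, whose first bases lie 89 and 84 bases before the start site. Hspa5 has 1 ER stress element, 65 bases before its start site, Dnajc3 has 1 at 105 bases, and Hsp90b1 has 2, at 212 and 107 bases.

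None of the 77 chaperone genes passed the test between Gata6STOP/+ and control OFTs. The limma test called 0 of 77 at an adjusted P under 0.05, and it called 0 of all 14732 genes (0.0%). The lowest adjusted P of a chaperone gene was 0.463. At an unadjusted P under 0.05 there were 2 of 77, Dnajb9 and Dnajb4, both higher in the mutants, against 8.06% of all genes (4.17% higher in the mutants). The Gata6STOP/+ pools lay wholly above the control pools for 3 of 77 (Dnajb9, Dnajb4 and Dnajc1) and wholly below them for 0, against 8.47% of all genes on either side and 4.31% above. With the likelihood ratio test of edgeR on the reads, 0.713% of all genes (105) and 0 of 77 chaperone genes were called, and the quasi-likelihood test of edgeR called 0 genes.

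The size of what could have been missed is limited by the intervals. Across the 77 genes the log2 fold change ranged from −0.29 (Dnajc4) to 0.29 (Hspa1b), with a median of 0.00047 against −0.00073 over all genes, and 39 were higher and 38 lower. The 95% interval of limma lay within ±0.25 for 42 of 77 (54.5%) and within ±0.5 for 70 of 77 (90.9%). Where the mean was at least 5 CPM, these shares over all genes were 44.7% and 91.8%. The fewest reads behind any value were 14, for Dnajc22 in a control pool, and 6 genes had a mean under 5 CPM (Hspa1l, Hspa1a, Dnajb3, Dnajc28, Dnajc22 and Dnajc6).

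**Figure D1:**
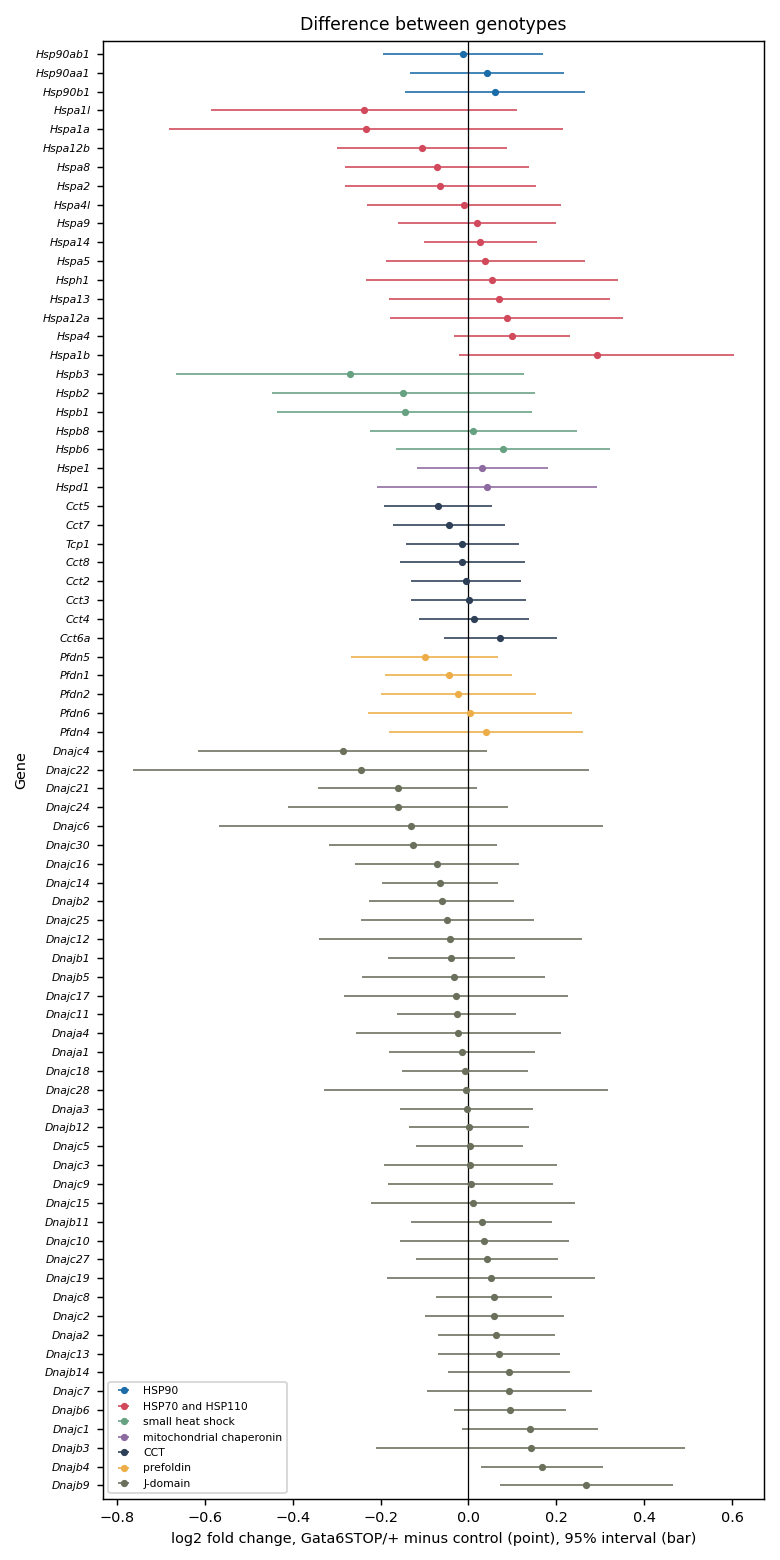
Log2 fold change, Gata6STOP/+ minus control, of each of the 77 chaperone genes (point) with its 95% limma interval (bar), coloured by role; n=3 control and 4 Gata6STOP/+ pools. The CCT subunits have the shortest bars as a group, and the intervals of Dnajb4 and Dnajb9 alone lie clear of 0.

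The HSP90 genes were among the most abundant and were level between genotypes. Hsp90ab1, the constitutive cytosolic HSP90, was at 2366, 2414 and 2357 CPM in the control pools and 2260, 2478, 2296 and 2404 in the Gata6STOP/+ pools (2379±30.8 and 2359±99.8, mean±s.d., n=3 and 4). Its groups overlapped throughout. Hsp90aa1, the heat-inducible paralog, was at 705.4, 812.5 and 870 CPM in the controls and 806, 830, 789 and 842 in the mutants. Hsp90b1, the HSP90 of the ER, was at 873, 1104 and 1080 CPM in the controls and 1059, 985, 1091 and 1096 in the mutants. For both, control replicate 3 was the lowest of the 7 pools. The median log2 fold change of the 3 genes was 0.04, and it was −0.04 without that pool.

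Among the 14 HSP70 and HSP110 genes, none passed the test, and 8 were higher and 6 lower with a median log2 fold change of 0.02. Hspa8, the constitutive cytosolic HSP70, was at 1922, 2236 and 2399 CPM in the control pools and 2012, 2026, 2114 and 2135 in the mutant pools (log2 fold change −0.07 ± 0.09, s.e.; limma adjusted P=0.886). The mutant pools all lay inside the control range. Hspa5 (BiP), the HSP70 of the ER, was at 776, 1014 and 996 CPM in the controls and 949, 856, 1012 and 979 in the mutants, and Hspa9, the mitochondrial HSP70, was at 421, 483 and 426 CPM and at 400, 493, 448 and 459. Both had overlapping groups, with Hspa5 lowest in control replicate 3 and Hspa9 lowest in Gata6STOP/+ replicate 1. Hspa4, an HSP110 that exchanges the nucleotide of HSP70, was at 277, 305 and 290 CPM in the controls and 303, 310, 304 and 328 in the mutants (log2 fold change 0.10 ± 0.06; adjusted P=0.730). Its control replicate 4 lay above 2 of the mutant pools. Hsph1, the heat-inducible HSP110, had its lowest value, 64.6 CPM, in control replicate 3 and 72.4 to 96.8 CPM in the other 6 pools.

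The heat-inducible HSP70 pair was expressed at a low level in both genotypes. Hspa1a was at 7.38, 3.90 and 4.03 CPM in the control pools and 3.68, 4.09, 3.86 and 4.80 in the mutant pools. Control replicate 3 stood above all the others, and the log2 fold change of −0.23 ± 0.20 (adjusted P=0.810) was 0.04 without it. Hspa1b was at 4.56, 5.35 and 5.21 CPM in the controls and 6.38, 5.18, 7.65 and 6.08 in the mutants (log2 fold change 0.29 ± 0.14; unadjusted P=0.0645, adjusted P=0.651, limma). Here control replicate 3 was the lowest, and 3 of 4 mutant pools lay above every control pool. The pair is nearly identical in sequence: 57.8% of the 60-base stretches of Hspa1a transcripts also occur in another gene, and 59.6% of those of Hspa1b, so how reads were shared between the 2 depends on the counting. Their sum was 10.1±1.56 CPM in the controls and 10.4±0.97 in the mutants (s.d.), and the share of Hspa1a in it was 61.9% in control replicate 3 against 33.6% to 44.1% in the other pools. Hspa1l, the paralog best known from testis, was at 4.46, 4.28 and 4.76 CPM in the controls and 3.12, 3.19, 4.23 and 4.59 in the mutants (log2 fold change −0.24 ± 0.16; adjusted P=0.754), and 1 mutant pool lay inside the control range. Most of its exonic length, 1778 of 2472 bases, overlaps an antisense gene, and the sources used here do not say whether reads were counted by strand, although the library kit keeps it.

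**Figure D2:**
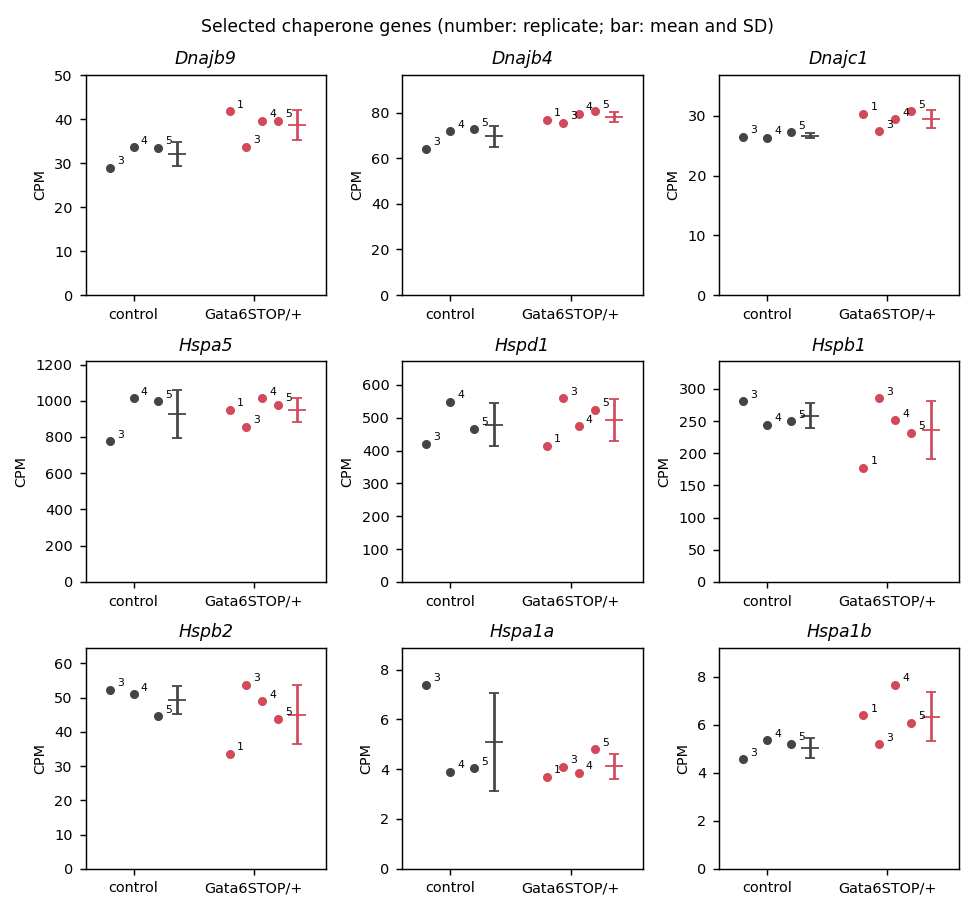
CPM in each pool (point, labelled with its replicate number) and mean with s.d. (bar) of 9 chaperone genes in 3 control and 4 Gata6STOP/+ pools; each vertical axis starts at 0. Dnajb9, Dnajb4 and Dnajc1 have mutant pools wholly above the control pools, Hspb1 and Hspb2 are lowest in Gata6STOP/+ replicate 1, and Hspa1a is highest in control replicate 3.

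The 3 members whose groups did not overlap were all among the 40 J-domain genes, a share of 7.5% against 8.47% of all listed genes. Dnajb9 (ERdj4; ENSMUSG00000014905, chr12:44205559-44210326, minus strand, GRCm38), a J-domain protein of the ER lumen that promotes the removal of misfolded proteins, was at 28.9, 33.6 and 33.5 CPM in the control pools and 41.8, 33.7, 39.6 and 39.7 in the mutant pools. The log2 fold change was 0.27 ± 0.09 (1.204-fold; unadjusted P=0.0121, adjusted P=0.463, limma). The groups were narrowly apart, with the lowest mutant value at 33.73 CPM and the highest control value at 33.64. Dnajb4 (ENSMUSG00000028035, chr3:152178511-152210302, minus strand), a cytosolic partner of HSP70 known from heart and skeletal muscle, was at 64.3, 71.8 and 72.8 CPM in the controls and 76.9, 75.5, 79.6 and 80.7 in the mutants (log2 fold change 0.17 ± 0.06; 1.12-fold; unadjusted P=0.0225, adjusted P=0.526). Dnajc1 (ENSMUSG00000026740, chr2:18195654-18392830, minus strand), a membrane protein of the ER that reaches ribosomes, was at 26.5, 26.4 and 27.2 CPM and at 30.3, 27.4, 29.4 and 30.8 (log2 fold change 0.14 ± 0.07; unadjusted P=0.0703, adjusted P=0.655). Control replicate 3 was the lowest pool for Dnajb9 and Dnajb4, and without it their log2 fold changes were 0.20 (unadjusted P=0.0593) and 0.11 (unadjusted P=0.0956, limma). Without that pool, 0 of 77 chaperone genes had an unadjusted P under 0.05, against 938 of all 14732 genes.

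The other J-domain genes lay on both sides of 0, with 20 higher and 20 lower in all and a median log2 fold change of −0.0015. Those with the most reads were Dnaja1 and Dnaja2, cytosolic partners of HSP70, and Dnajc5, the cysteine string protein of secretory vesicles. Dnaja1 was at 189, 223 and 238 CPM in the controls and 210, 214, 217 and 212 in the mutants, all 4 of which lay inside the control range. Dnaja2 was at 158, 179 and 172 CPM and at 174, 181.6, 172 and 181, and Dnajc5 was at 181, 171 and 169 CPM and at 169, 170, 177 and 181. Dnajc5 was the most even of the 77 genes, with its highest pool 1.07-fold above its lowest.
Lower on average in the mutants were Dnajc21, which takes part in making ribosomes (31.9, 26.9 and 29.6 CPM against 24.7, 27.4, 25.3 and 27.7; log2 fold change −0.16 ± 0.08; adjusted P=0.663), Dnajc4 (11.5, 11.9 and 10.8 CPM against 6.80, 9.85, 11.2 and 9.80; −0.29 ± 0.15; adjusted P=0.673) and Dnajc30, a mitochondrial protein (18.1, 16.9 and 16.7 CPM against 16.1, 17.1, 14.4 and 15.7; −0.13 ± 0.09; adjusted P=0.759). All 3 had overlapping groups, and Dnajc4 was at −0.15 without Gata6STOP/+ replicate 1, its lowest pool.
Higher on average were Dnajb6, which keeps proteins from aggregating (99.7, 101 and 101 CPM against 108, 109, 100 and 113; log2 fold change 0.09 ± 0.06; adjusted P=0.734), and Dnajb14, of the ER membrane (45.0, 42.3 and 44.1 CPM against 49.6, 46.3, 44.6 and 46.4; 0.09 ± 0.06; adjusted P=0.758). In each, 1 mutant pool lay inside the control range. The 2 genes with the fewest reads, Dnajc22 and Dnajc6 (auxilin, which uncoats clathrin vesicles), were between 0.784 and 1.92 CPM in every pool.

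Of the 5 small heat shock genes, 0 passed the test, and Gata6STOP/+ replicate 1 was the lowest of the 7 pools for 4 of them. Hspb1, the small heat shock protein best known for binding actin filaments, was at 281, 244 and 249.5 CPM in the control pools and 177, 286, 251 and 232 in the mutant pools (log2 fold change −0.15 ± 0.13; adjusted P=0.817). Hspb2, a muscle protein, was at 52.4, 51.0 and 44.6 CPM and at 33.5, 53.7, 48.9 and 43.9 (−0.15 ± 0.14; adjusted P=0.818), and Hspb3, its partner in muscle, was at 10.02, 12.6 and 9.58 CPM and at 6.10, 10.9, 10.01 and 8.72 (−0.27 ± 0.18; adjusted P=0.755). Hspb8, which works with BAG3 in the clearance of damaged muscle proteins, was at 59.7, 59.1 and 64.4 CPM and at 49.4, 71.5, 63.2 and 64.1. Gata6STOP/+ replicate 1 lay below every control pool in these 4 genes and Gata6STOP/+ replicate 5 in the first 3, whereas replicates 3 and 4 did so in none. Hspb6, the fifth, was at 6.71, 6.90 and 7.90 CPM in the controls and 7.86, 8.15, 7.08 and 7.30 in the mutants, and was lowest in control replicate 3.
The median log2 fold change of the 5 genes was −0.15, and it was −0.014 without Gata6STOP/+ replicate 1. Cryab (αB-crystallin), their relative and the neighbour of Hspb2 on the opposite strand, was at 206, 189 and 176 CPM in the controls and 126, 210, 183 and 161 in the mutants, lowest in the same pool. Of the 834 exonic bases of Hspb2, 252 overlap Cryab, so without counting by strand the reads in this overlap cannot be told apart. Moreover, 47.9% of the 60-base stretches of Hspb1 transcripts also occur in the pseudogene Hsp25-ps1. Of the 10 cardiomyocyte markers, 9 were lowest in Gata6STOP/+ replicate 1, where the marker sum was 18849 CPM against 23053 to 26697 in the other 6 pools. In Gata6STOP/+ replicate 3, 5 of the markers and 4 of the 5 small heat shock genes were highest. Elsewhere they differed. The mean log2 difference from each gene's mean was 0.37 for the markers in control replicate 4, their highest, and 0.08 for the small heat shock genes. In Gata6STOP/+ replicate 4 these means were −0.09 and 0.03. The part of cardiomyocyte content in the small heat shock values was not tested.

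**Figure D3:**
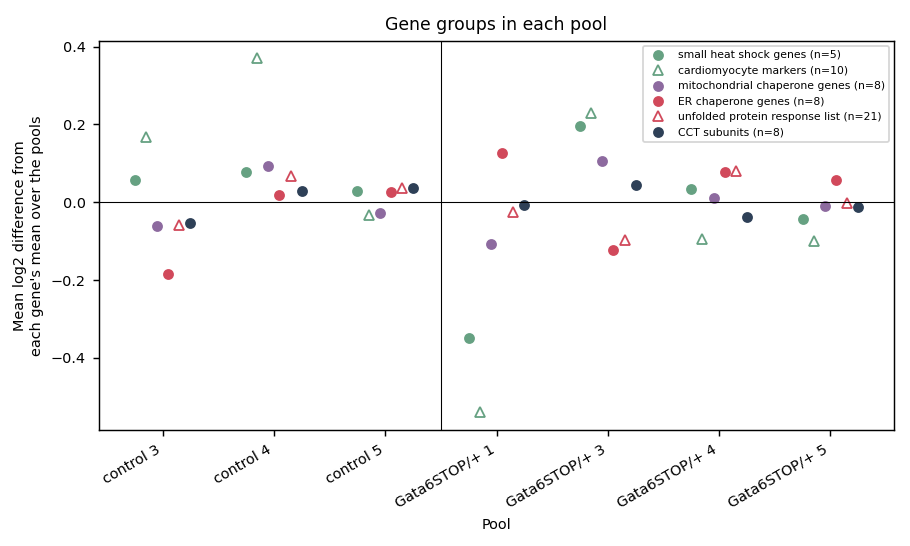
Mean over the genes of a group of the difference between log2(CPM + 0.5) in a pool and the gene's mean over the 7 pools (vertical axis), for each pool (horizontal axis); filled circles are chaperone groups or CCT, open triangles the cardiomyocyte markers and the unfolded protein response list. In Gata6STOP/+ replicate 1 the small heat shock genes are at −0.35 and the cardiomyocyte markers at −0.54; in control replicate 3 the ER chaperone genes are at −0.18.

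Both genes of the mitochondrial chaperonin were lowest in Gata6STOP/+ replicate 1 and highest in Gata6STOP/+ replicate 3. Hspd1 (HSP60) was at 420, 549 and 467 CPM in the control pools and 414, 560, 474 and 524 in the mutant pools. Hspe1 (HSP10), whose promoter window shown above largely matches 1 window of Hspd1, was at 110, 119 and 114 CPM and at 106, 125, 122 and 113. The groups overlapped for both, and the median of their log2 fold changes was 0.04. Of the 8 mitochondrial chaperone genes (these 2, Hspa9, Dnaja3, Dnajc11, Dnajc15, Dnajc19 and Dnajc30), 6 were lowest in Gata6STOP/+ replicate 1 and 5 highest in Gata6STOP/+ replicate 3. Of the 10 cardiomyocyte markers, 9 were lowest and 5 highest in these same pools, and the part of cardiomyocyte content in the mitochondrial chaperone values was not tested. Their median log2 fold change of 0.02 was 0.05 without the former pool and −0.02 without the latter.

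A chosen list of 8 ER chaperone genes was higher on average in the mutants, with 1 low control pool. All 8 (Hspa5, Hspa13, Hsp90b1, Dnajb9, Dnajb11, Dnajc1, Dnajc3 and Dnajc10) had a log2 fold change above 0, with a median of 0.05, and 0 of 8 passed the test. The list does not hold every ER member of the 77 genes. Left out were Dnajb14 (log2 fold change 0.09), Dnajb12 (0.0011), Dnajc14 (−0.06), Dnajc16 (−0.07) and Dnajc18 (−0.0071), among others. These lay on both sides of 0, so the shared direction describes the list alone. Control replicate 3 was the lowest pool for 4 of the 8 and held 2101 CPM of them in sum, against 2294 to 2626 in the other pools. Without that pool, 3 of 8 were above 0 and the median was −0.03. The 3 genes whose promoters hold the ER stress element shown above, Hspa5, Hsp90b1 and Dnajc3, had overlapping groups. Dnajc3 (P58IPK), which restrains the kinase PERK, was at 76.2, 84.2 and 87.4 CPM in the controls and 88.2, 69.9, 88.6 and 85.7 in the mutants.
Of 21 other listed genes of the unfolded protein response, 8 were higher and 13 lower, with a median log2 fold change of −0.02. An unadjusted limma P under 0.05 was found in 0 of these 21, against 8.06% of all genes. The 3 with the lowest P were Ddit3 (CHOP; −0.15 ± 0.11), Creld2 (−0.13 ± 0.10) and Pdia6 (−0.10 ± 0.07), the last a disulphide isomerase.

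The CCT subunits differed little between pools and between genotypes. The 8 subunits are built 1 to 1 into the ring, and their levels, per kb of exon, ran from 97.7 CPM per kb (Cct4) to 166 (Cct5), a 1.70-fold range. Between genotypes the log2 fold changes lay between −0.07 (Cct5) and 0.07 (Cct6a), and the 95% intervals of all 8 lay within ±0.25. Tcp1, which encodes the first subunit, was at 418, 438 and 433 CPM in the control pools and 420, 449, 412 and 422 in the mutant pools. Cct5 was at 302, 320 and 325 CPM and at 310, 300, 294 and 299, and Cct6a was at 241, 263 and 257 CPM and at 263, 279, 257 and 266.5, both with overlapping groups. For the remaining 5 the group means were 305±11.7 and 304±8.86 CPM for Cct2, 298±9.99 and 298±13.2 for Cct3, 241.6 (230 to 251 over the pools) and 244±7.29 for Cct4, 293±9.60 and 284±11.1 for Cct7, and 294±19.8 and 291±11.9 for Cct8 (control and Gata6STOP/+, s.d., n=3 and 4). None of these differences exceeded the spread between pools.

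Prefoldin subunits were less even in level, from 15.4 CPM per kb (Pfdn4) to 65.1 (Pfdn5), a 4.21-fold range over the 5 listed Pfdn genes. Pfdn5 was at 96.8, 85.7 and 98.9 CPM in the controls and 88.7, 92.4, 90.7 and 78.1 in the mutants, and Pfdn1 at 55.5, 53.7 and 59.4 CPM and at 52.9, 58.7, 53.5 and 52.8. Pfdn2 was at 45.8, 47.0 and 48.8 CPM and at 42.1, 48.1, 52.3 and 43.8, Pfdn6 at 41.2, 35.1 and 38.0 CPM and at 32.1, 42.5, 42.8 and 36.1, and Pfdn4 at 15.2, 16.9 and 20.2 CPM and at 17.4, 18.7, 17.6 and 17.6. All 5 overlapped between genotypes, and their log2 fold changes lay between −0.10 (Pfdn5) and 0.04 (Pfdn4).

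**Figure D4:**
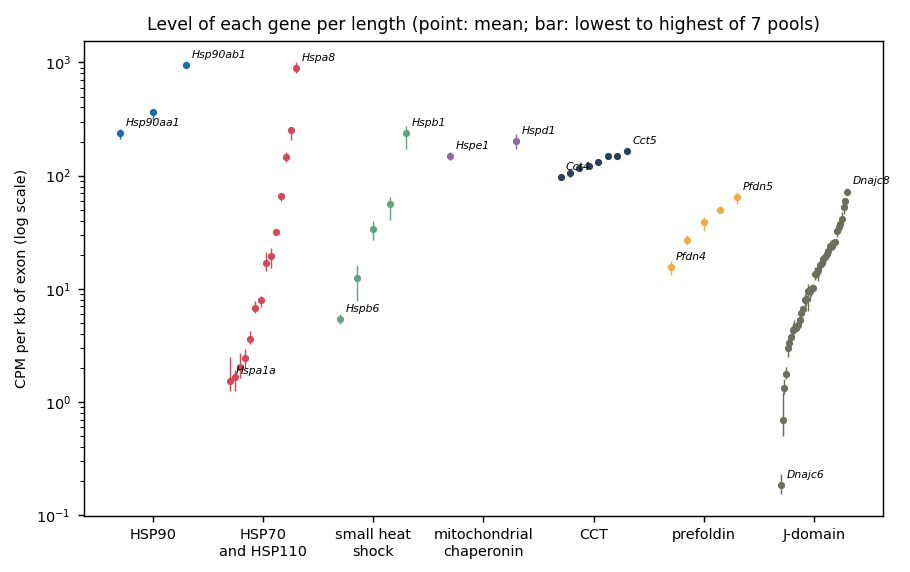
CPM per kb of exon (log axis) of each chaperone gene by role; the point is the mean and the bar runs from the lowest to the highest of the 7 pools. CCT subunits lie in a band of 1.70-fold, prefoldin in one of 4.21-fold, and the J-domain genes run down to Dnajc6 at 0.18.

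A few genes took a large share of the chaperone reads. Hsp90ab1 and Hspa8 made up 31.4% of the summed CPM of the 77 genes, and with Hsp90b1, Hspa5 and Hsp90aa1 the share was 50.8%. Per kb of exon, Hsp90ab1 (940 CPM per kb) and Hspa8 (886) led, followed by Hsp90b1 (369), Hspa5 (251), Hsp90aa1 (239), Hspb1 (238) and Hspd1 (201). The ranges over the 7 pools of the first 2 overlapped (897 to 983 and 803 to 1002), as did those of Hsp90aa1, Hspb1 and Hspa5. Transcripts of 10 of the 77 genes share over 10% of their 60-base stretches with another gene, mostly pseudogenes, among them Hsp90aa1 (45.5%), Hspa8 (36.3%) and Hspd1 (35.3%), and their levels depend on how such reads were counted.

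The lowest value of a chaperone gene often fell in 1 of 2 pools. Control replicate 3 and Gata6STOP/+ replicate 1 were each the lowest pool for 27 of the 77 genes (35.1%), against 19.7% of all listed genes in each case. Together they were the lowest for 70.1% of the chaperone genes and 39.4% of all genes. Gata6STOP/+ replicate 3 was the highest for 20 of 77 (26%), against 15.5% of all genes. The sum over the 77 genes was 13381 CPM in control replicate 3, 13867 in Gata6STOP/+ replicate 1 and 14329 to 14798 in the other 5 pools. Over the 77 genes the highest pool exceeded the lowest by 1.07-fold (Dnajc5) to 2.45-fold (Dnajc22), with a median of 1.26-fold.

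**Figure D5:**
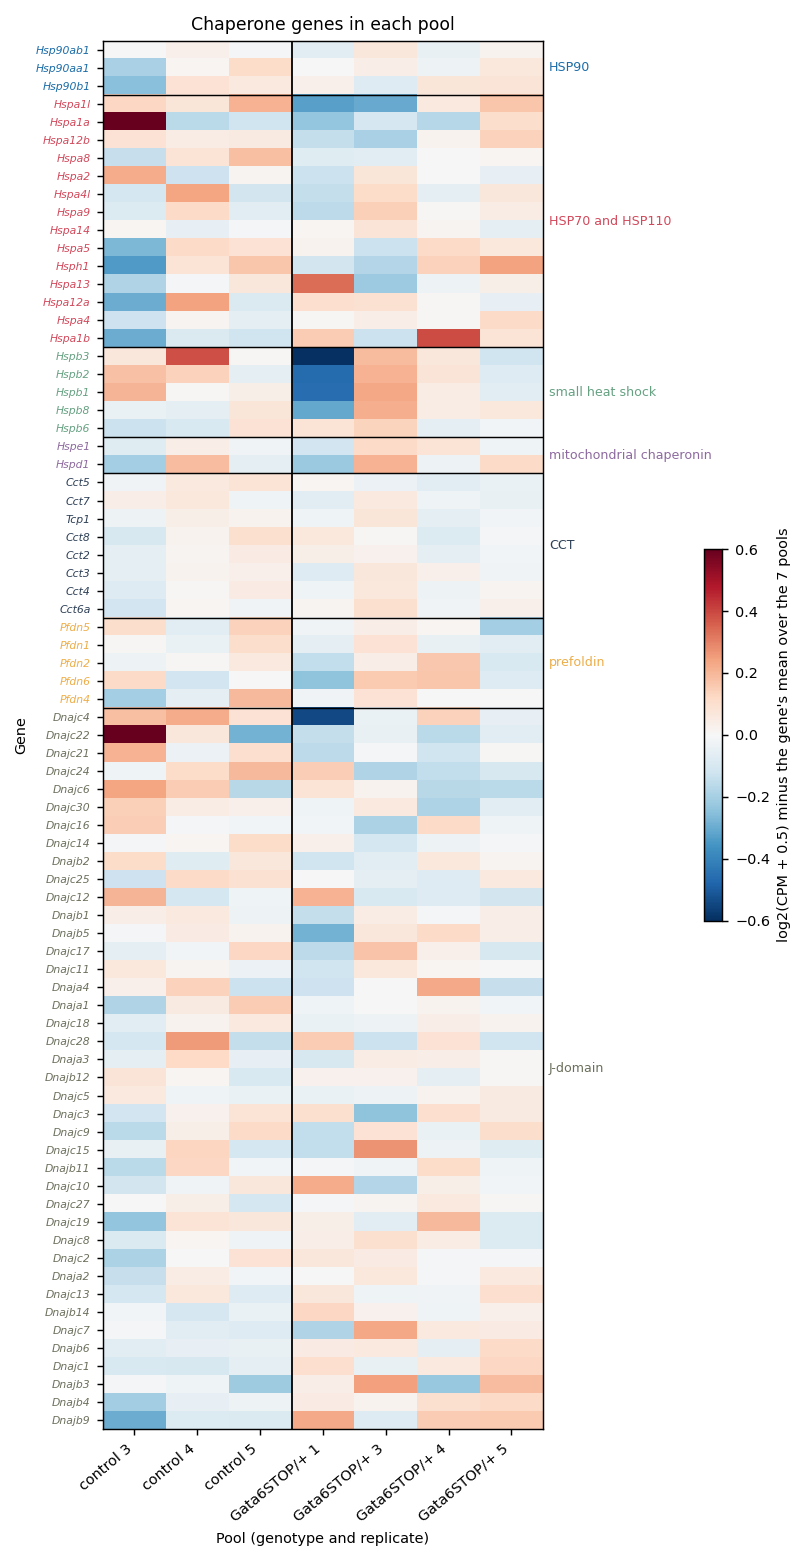
Difference between log2(CPM + 0.5) in a pool and the gene's mean over the 7 pools for the 77 chaperone genes (rows, by role and then by fold change) in each pool (columns); colours saturate at ±0.6. The columns of control replicate 3 and Gata6STOP/+ replicate 1 hold the most blue cells, and 4 of the 5 small heat shock rows are bluest in the latter.

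Genes that switch on chaperones or work beside them also had 0 past the test in each list. The heat shock factors Hsf1 and Hsf2 and the binding protein Hsbp1 had log2 fold changes from −0.05 to −0.01. The 11 heat-inducible chaperone genes had a median of 0.03, with 6 higher and 5 lower, and Hspa1b the furthest from 0. Of 28 co-chaperones, 12 were higher and 16 lower, and those with the lowest P were Unc45a, a myosin chaperone (−0.17 ± 0.07; unadjusted P=0.0420, adjusted P=0.598, limma), Tomm70a, the mitochondrial import receptor (0.10 ± 0.05), and Hspbp1, a nucleotide exchange factor of HSP70 (−0.14 ± 0.07). Of 12 organelle chaperones and exchange factors, 4 were higher and 8 lower. Sil1, the exchange factor of BiP, had 19.1, 19.98 and 20.7 CPM in the controls and 17.8, 18.3, 17.0 and 17.7 in the mutants (−0.17 ± 0.08; unadjusted P=0.0481, adjusted P=0.611), with all mutant pools below the controls. Of 13 partners of CCT and prefoldin, 9 were higher and 4 lower, among them Mkks, a CCT-like protein that helps to assemble the BBSome, at 19.8, 20.2 and 21.6 CPM in the controls and 25.1, 24.9, 22.6 and 24.5 in the mutants (0.24 ± 0.08; unadjusted P=0.0092, adjusted P=0.428). Its mutant pools all lay above the controls. The groups did not overlap for 3 of the 28 co-chaperones (1 higher in the mutants and 2 lower), 2 of the 12 organelle chaperones and exchange factors (both lower) and 2 of the 13 partners (1 higher and 1 lower), against 8.47% of all genes. Among 19 immediate early genes, which respond within minutes to handling and other stimuli, 7 were higher and 12 lower. An unadjusted limma P under 0.05 was found in 0 of these 19, against 8.06% of all genes. The lowest P values were those of Klf4 (0.26 ± 0.12), Atf3 (−0.16 ± 0.08) and Ccn1 (−0.18 ± 0.10).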

How the data were processed

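RNA-seq libraries (NEBNext Ultra II Directional, poly(A)+ RNA) were made from 3 control and 4 Gata6STOP/+ pools of E11.5 OFTs. Reads were trimmed with Cutadapt and quantified with RSEM on GRCm38, and the deposited values are CPM that the authors normalized with TMM in edgeR, for the 14732 genes that reached 1 CPM in 3 or more pools. Strandedness of the counting is not given in the sources used here. All 7 sample columns were used. In each pool, 100% of the deposited CPM values were whole multiples of 1 read (tolerance 0.01 reads), and these reads entered the count tests. Intervals and tests cover the spread between pools.

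Genes were tested with limma 3.58.1 (lmFit, eBayes with trend, in R 4.3.3) on log2(CPM + 0.5) with genotype as the only term (two-sided, Benjamini-Hochberg adjustment over all genes, threshold 0.05). Such fold changes understate changes of low genes. Alternatives were constants of 0.1 and 2, a mean of at least 5 CPM, median-of-ratios scaling, a block on replicate number, edgeR 4.0.16, DESeq2 1.42.0, and leaving out each pool. The fits were tested on simulated data. Exon lengths, overlaps and 60-base stretches came from GENCODE M21 and promoters (250 bases before to 50 after the start) from RefSeq. Plots used matplotlib 3.10.9.

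Genes were named if the groups did not overlap, if among the 12 lowest P-values, and per role as the 3 highest in CPM, or all in roles of up to 9 genes; no gene past the threshold under an alternative or below 1 CPM on average was found. From the co-chaperone, unfolded protein response and immediate early lists the 3 lowest P-values were named. Hspa1a, Hsph1, Dnajc3, Dnajc22, Dnajc6, Dnajb11, Dnajc12, Sil1, Mkks and Cryab were added after their values were seen. The members and all lists were chosen with earlier results of these data known. One small heat shock gene that matches the name pattern is not reported here.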

Additional observations from a re-analysis of the deposited data

Results flagged for a closer look

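In each of the 77 chaperone genes, the 4 Gata6STOP/+ pools were searched for 1 pool far from the other 3, by Dixon's test at its 95% level, which chance passes in about 1 group in 20. It was passed by 4 genes. Dnajb11, an ER partner of BiP, had 124 CPM in Gata6STOP/+ replicate 4 and 113 to 114 in the other 3 mutant pools, inside the control range of 103 to 125. Dnajc3 had 69.9 CPM in Gata6STOP/+ replicate 3, below all other pools. Pfdn1 had 58.7 CPM in the same pool and 52.8 to 53.5 in the other mutant pools, again inside the control range of 53.7 to 59.4. Dnajc12 had 6.21 CPM in Gata6STOP/+ replicate 1 and 4.88 to 5.003 in the other mutant pools, and 6.19 in control replicate 3.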

How the results depend on the processing

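The count of 0 chaperone genes past the threshold held under all 17 alternatives, and the lowest adjusted P of a chaperone gene in any of them was 0.226 (Dnajb9, limma, without Gata6STOP/+ replicate 3). The number of all genes called moved from 0 to 1 with a constant of 0.1, 88 with DESeq2, and 105 with the likelihood ratio test of edgeR. Leaving out 1 pool gave 0 to 13 genes, with 13 without control replicate 4, 2 without Gata6STOP/+ replicate 3 and 1 without Gata6STOP/+ replicate 1. With 1 pool left out, the median log2 fold change of the 77 genes ranged from −0.0344 without control replicate 3 to 0.0192 without Gata6STOP/+ replicate 1, and its highest value in any alternative was 0.0207, in the likelihood ratio fit of edgeR with the replicate block. The number of chaperone genes whose groups did not overlap, 3 with all pools, was 6 to 11 with 1 pool left out, which such smaller groups make easier (11 without control replicate 4). The share over all genes was not taken for these smaller groups, so this rise cannot be read as a trait of the chaperone genes. The number of chaperone genes with an unadjusted P under 0.05, 2 with all pools, was 4 without Gata6STOP/+ replicate 3, 1 without Gata6STOP/+ replicate 5 and 0 without control replicate 3. Over all 14732 genes it was 1187 with all pools, and 1304, 869 and 938 in the same order. Of 16 genes whose fold changes were followed through the alternatives, 15 kept their direction in all. The exception was Hspa1a, at −0.38 to 0.0402 with 1 pool left out, 0.0402 without control replicate 3. The median of HSP70 and HSP110 was 0.08 without control replicate 4. The replicate numbers showed no sign of pairing: same-numbered deviations correlated across genes at −0.008, −0.12 and −0.0016 (replicates 3, 4 and 5). Pools of unlike numbers correlated at −0.07 to 0.12. Whether same-numbered pools shared a litter or batch cannot be told from so few correlations. With the number as a replicate block, limma called 14 genes, edgeR 13 (quasi-likelihood) and 118 (likelihood ratio), and 0 chaperone genes in each. Gata6STOP/+ replicate 1 has no control of its number, so the block removes it. At least 14 reads lay behind every value of a chaperone gene, and counting error was not separated from the spread between pools.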
